A study of Mus musculus with 6 samples.

Results

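Imprinted genes are transcribed mainly from 1 parental copy, and most lie in clusters that share a methylated control region. The 32 mouse genes described here are known imprinted genes other than H19 and Igf2, and they were found by their symbol among the 50600 genes of the deposited tables. All 32 symbols were present, and 23 of them had enough reads to be tested. Their RNA was measured in whole liver of C57BL/6 mice about 1 month old. In 3 samples both Dicer alleles were flanked by loxP sites and Cre was driven by the albumin promoter (genotype Dicerloxp/loxp;Alb-cre, here Dicer LKO, n = 3). The other 3 carried the same loxP-flanked alleles without Cre (Dicerloxp/loxp, here control, n = 3), although the series' design calls them wild type. The albumin promoter drives Cre in hepatocytes, so other liver cells keep their Dicer alleles and still add RNA to each sample. Nothing in the labels shows that the samples of a group came from separate animals, and p-values here therefore reflect sample-to-sample spread that may be technical.

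Many imprinted genes regulate growth before birth, and in liver a group of them is switched off in the weeks after birth. Paternally expressed members such as Dlk1, Peg3, Mest and Plagl1 are known mostly as promoters of growth or of progenitor states, whereas maternally expressed ones such as Cdkn1c, Grb10, Phlda2 and Igf2r mostly restrain growth. Several clusters are also sources of small RNAs: Meg3, Rian and Mirg, which follow each other on 1 strand of chromosome 12, are long noncoding RNAs from which miRNAs and small nucleolar RNAs are cut, and Dicer makes the last cut of the miRNAs.

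Mirg spans 14 annotated miRNA hairpins on its own strand, Rian 3 and Meg3 1. Rtl1 spans 7, of which 6 lie on the opposite strand, and Mest and Usp29 span 1 each. The following mature miRNAs are shown because they are products of the measured transcripts, or of the strand opposite to Rtl1, that need Dicer. Their own levels were not measured here. Sequences are from RefSeq (GRCm38.p6), written 5′ to 3′, with the seed (bases 2 to 8) in capitals, and the 6 have 6 distinct seeds. On chromosome 12 they lie, in the order printed, at 109592888 to 109592909, 109618305 to 109618326, 109734145 to 109734166, 109743204 to 109743225 and 109743764 to 109743784, and the last lies on chromosome 6 at 30741314 to 30741336, each on the plus strand.
mmu-miR-127-3p (opposite to Rtl1): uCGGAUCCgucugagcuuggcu
mmu-miR-370-3p (in Rian): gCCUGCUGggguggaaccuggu
mmu-miR-134-5p (in Mirg): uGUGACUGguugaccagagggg
mmu-miR-409-3p (in Mirg): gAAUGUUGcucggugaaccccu
mmu-miR-410-3p (in Mirg): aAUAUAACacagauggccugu
mmu-miR-335-5p (in Mest): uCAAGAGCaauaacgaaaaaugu

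Library totals were 22257509 to 25049753 counts in Dicer LKO and 14141954 to 22152515 counts in controls. Dicer1, the targeted gene, was at 28.9, 31.2 and 24.4 CPM (read counts scaled by library total and TMM factor to a common depth, the usual CPM unit) in Dicer LKO and at 42.5, 69.3 and 56.1 CPM in controls, with no overlap (log2 fold change -0.99, SE 0.20, adjusted p = 0.0622, edgeR). It passed the threshold in 3 of 14 alternatives, DESeq2 (adjusted p = 0.00117), edgeR with no filter (adjusted p = 0.0220) and edgeR without control replicate 1 (adjusted p = 0.0327). The count covers the whole gene, and it comes from every cell type of the liver. Control replicate 3 stood apart from the other libraries. It had the lowest total, 10.2% mitochondrial reads against 4.62% to 6.46% elsewhere, and most muscle RNA: the 9 heart muscle markers summed to 1.24, 0.524 and 12.1 CPM in Dicer LKO and to 13.6, 14.1 and 119 CPM in controls, and 6 of the 9 were at 0 in each of Dicer LKO replicates 1 and 2. Hepatocyte markers summed to 78657 to 92954 CPM in Dicer LKO and 57532 to 99925 CPM in controls. Of 11 stellate cell and fibroblast markers 3 rose (summed 574 to 640 against 407 to 471 CPM), of 8 bile duct markers 3 rose (147 to 276 against 38.4 to 54.5 CPM), of 8 endothelial markers 1 rose (396 to 518 against 283 to 351 CPM), of 8 macrophage markers 1 rose (362 to 436 against 182 to 406 CPM) and of 8 red blood cell markers 6 rose (1145 to 2135 against 284 to 381 CPM). None of those markers was at 0 in any library. The 6 neutrophil markers summed to 30.1 to 66.6 CPM in Dicer LKO and 1.66 to 18.9 CPM in controls, with 4 of them at 0 in control replicate 3, and 0 of the 5 tested were called (3 at an unadjusted p under 0.05, edgeR). The part of these cell types in the values of the imprinted genes was not tested, and in whole liver a different share of cells of 1 type and a different level per cell cannot be told apart.

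None of the 23 tested imprinted genes was called different between Dicer LKO and control livers at an adjusted p under 0.05 (edgeR's quasi-likelihood test, Benjamini-Hochberg adjustment over all 14314 genes tested), where 1.29% of all genes were called (0.741% higher and 0.552% lower). Their adjusted p-values were 0.140 or more. At an unadjusted p under 0.05 there were 4 (Mirg, Peg3, Ndn and Gnas), against 21% of all genes, and DESeq2, voom and limma on TPM each also gave 0 called and 4 at that unadjusted level. The number at that unadjusted level was 2 without a filter, 2 with the replicate number as a block, 0 with a heart muscle term and 1 to 4 when single libraries were left out, with 1 without Dicer LKO replicate 3 and 1 without control replicate 2. CPM did not overlap between the groups for 5 members, which were Mirg and Cdkn1c on the higher side and Ndn, Ube3a and Gnas on the lower side, against 28% of all genes. The 4 and the 5 are 17.4% and 21.7% of the 23, near the shares of all genes. The log2 fold change (Dicer LKO minus control) was positive for 15 of the 23, with a median of 0.12, while 48.6% of all genes had a positive value and their median was -0.01.

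**Figure D1:**
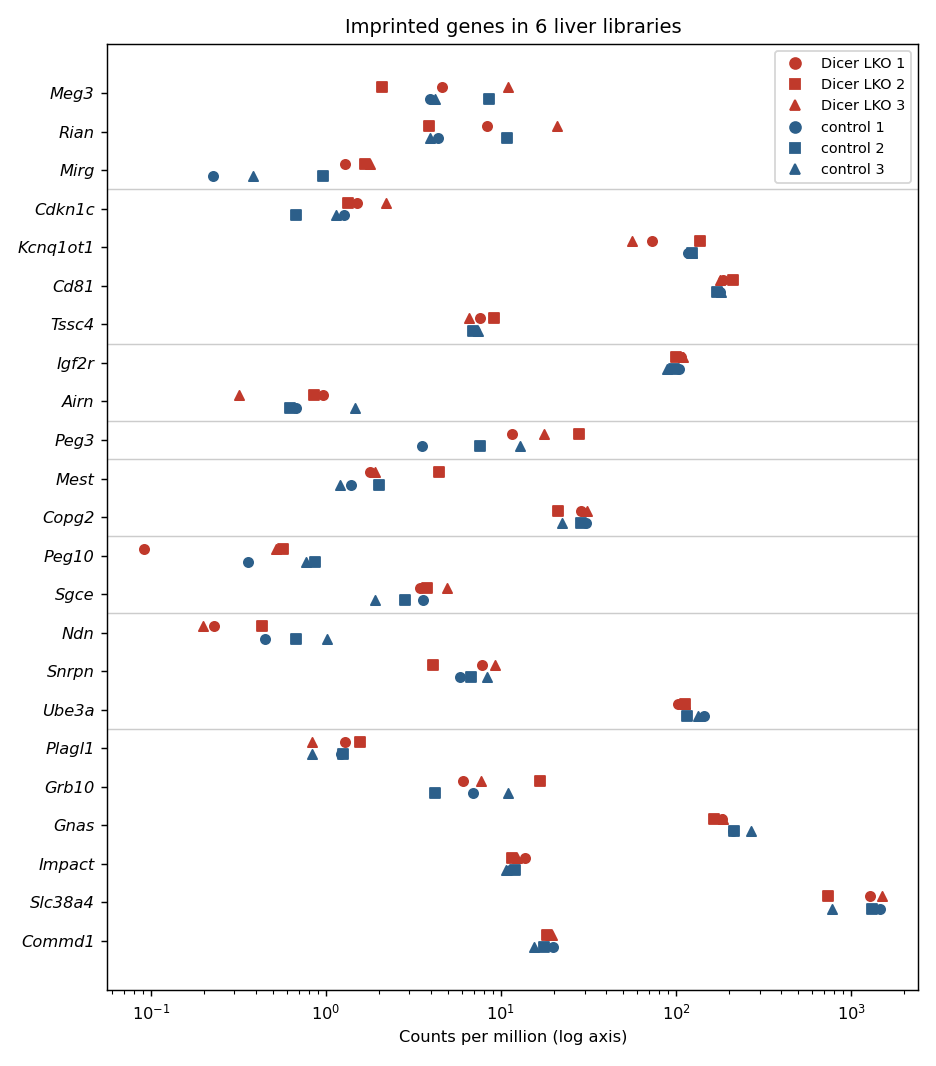
CPM (log axis) of the 23 tested imprinted genes in each library, 3 Dicer LKO (red) and 3 control (blue), with 1 symbol per replicate number and lines between clusters. Values run from 0.0917 CPM for Peg10 to 1492 CPM for Slc38a4, and the groups overlap for all but Mirg, Cdkn1c, Ndn, Ube3a and Gnas.

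A missed threshold does not show that a gene was equal in the groups, and the precision differed widely between members. The median standard error of the log2 fold change was 0.34 for members and 0.22 for all genes. Members with few counts, such as Peg10, Airn and Ndn, had wide intervals (SE 0.63, 0.53 and 0.50), but the width did not follow the level in every case. For Igf2r the 95% interval was -0.17 to 0.42 on the log2 scale, for Cd81 -0.22 to 0.45, for Commd1 -0.23 to 0.41 and for Impact -0.18 to 0.46. Slc38a4, the most abundant member, had a wider interval (-0.80 to 0.77), and those of Rian (-0.92 to 2.48) and Meg3 (-1.39 to 1.56) were wider still.

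**Figure D2:**
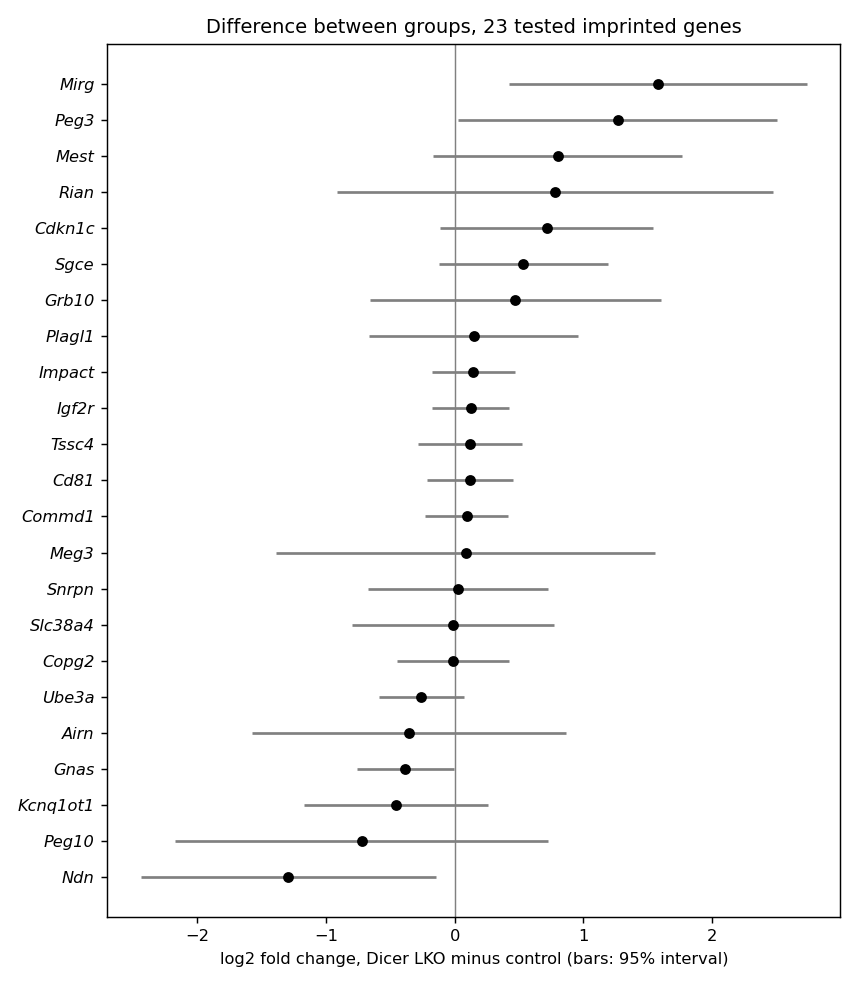
Log2 fold change, Dicer LKO minus control, of the 23 tested members with its 95% interval. The values run from -1.29 for Ndn to 1.58 for Mirg, and the intervals of Mirg, Peg3, Ndn and Gnas exclude 0 before any adjustment for the number of genes.

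On a scale corrected for transcript length (TPM, the authors' values, mean of the 6 samples), the members spanned from 233 TPM for Slc38a4, a neutral amino acid transporter, to 0 for Magel2. Slc38a4, the tetraspanin Cd81 (96.7 TPM) and the G protein subunit gene Gnas (94.9 TPM) made up 46.3%, 19.2% and 18.8% of the summed level of all 32. Commd1, a protein of copper handling and endosomal sorting, followed at 24.2, the ubiquitin ligase gene Ube3a at 14.4 and Igf2r, the receptor that takes up and degrades IGF2, at 8.22 TPM. The classical fetal growth genes stood far lower, with Peg3 at 1.25, Mest at 0.628, Plagl1 at 0.317 and Dlk1 at 0.217 TPM. Summed over the members, the level was 380 to 570 TPM in Dicer LKO and 474 to 584 TPM in controls. All these values are totals per gene. The part of each parental copy was not measured, so they do not show that a member was imprinted in these livers.

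The cluster on chromosome 12 (GRCm38, from 109452823 at the start of Dlk1 to 110281097 at the end of Dio3) holds Dlk1, Rtl1, Meg3, Rian and Mirg. Meg3 (109541001 to 109571726, plus strand) was at 4.63, 2.10 and 11.0 CPM in Dicer LKO, in the order of replicates 1 to 3 that is kept throughout, and at 3.92, 8.60 and 4.21 CPM in the controls. Both groups spanned most of the same range, and the log2 fold change was 0.08 (SE 0.61, adjusted p = 0.956, edgeR). Rian (109603940 to 109661716, plus strand) was at 8.30, 3.86 and 20.8 CPM in Dicer LKO and at 4.37, 10.9 and 3.95 CPM in controls. Replicate 3 was the highest Dicer LKO library and replicate 2 the lowest for both transcripts, and control replicate 2 stood above the other controls. Rian's log2 fold change was 0.78 (SE 0.69, adjusted p = 0.576, edgeR), and without Dicer LKO replicate 3 it was -0.07.

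Mirg (109729764 to 109749460, plus strand), the most distal of these noncoding RNAs and the one with most miRNA hairpins, had the largest positive difference of all tested members. It was at 1.28, 1.67 and 1.79 CPM in Dicer LKO (28, 35 and 45 counts) and at 0.225, 0.961 and 0.383 CPM in controls (5, 20 and 6 counts). All 3 Dicer LKO libraries lay above all 3 controls, with control replicate 2 closest to them. The means were 1.58 ± 0.265 and 0.523 ± 0.387 CPM (SD, n = 3 each), and the log2 fold change of 1.58 (SE 0.50) was not called (adjusted p = 0.140, edgeR). That adjusted p was 0.0814 to 0.789 over the alternatives tried, so no setting called it.

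In counts, though not in TPM, each Dicer LKO library held more Rian reads per Meg3 read than any control. The ratio of Rian to Meg3 counts was 1.79, 1.84 and 1.90 in Dicer LKO and 1.11, 1.26 and 0.939 in the controls. The means were 1.84 ± 0.0531 and 1.11 ± 0.162 (SD, n = 3 each), with no overlap. The ratio of Mirg to Meg3 counts was 0.277, 0.795 and 0.164 in Dicer LKO and 0.0575, 0.112 and 0.0909 in controls, again without overlap. For both ratios a two-sided exact permutation test gave p = 0.1, and 3 against 3 libraries cannot give less. Gm37899, an unclassified transcript between Rian and Mirg on the same strand (109668869 to 109677585), gave ratios to Meg3 of 0.218, 0.795 and 0.225 in Dicer LKO and 0.0920, 0.134 and 0.121 in controls (exact permutation p = 0.1). The ratio of Mirg to Rian counts overlapped between the groups, at 0.155, 0.432 and 0.0862 in Dicer LKO and 0.0515, 0.0885 and 0.0968 in controls (exact permutation p = 0.3). All 4 ratios were chosen after the values were seen, and those to Meg3 share their divisor, so they are not independent results. The ratios to Meg3 also depend on the unit. With the authors' TPM values the Rian to Meg3 ratio was 2.10, 1.24 and 2.70 in Dicer LKO and 1.19, 1.55 and 1.63 in controls (exact permutation p = 0.3), and the groups overlapped. In TPM the Mirg to Meg3 ratio overlapped too (0.504, 1.07 and 0.165 against 0.0973, 0.136 and 0.194, exact permutation p = 0.2), while that of Gm37899 did not (exact permutation p = 0.1).

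**Figure D3:**
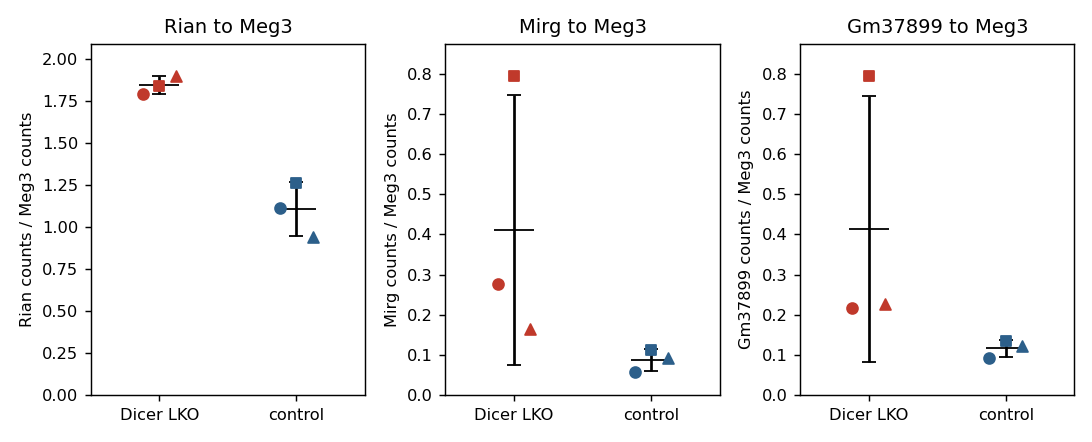
Ratios of the counts of Rian, Mirg and Gm37899 to those of Meg3 in each library (points, 1 symbol per replicate number), with the mean and SD of 3 libraries per group (bars). The Dicer LKO libraries lie above the controls in each panel, most tightly for Rian to Meg3 (1.79 to 1.90 against 0.939 to 1.26).

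Of the 104 genes of the domain listed in the tables, 67 were annotated miRNA genes and 23 small nucleolar RNA genes, and none of these had a single count in any library. Levels of such short RNAs were not measured here, so these 0 counts do not show that they were absent in either group. Only 9 genes of the domain had any count. Dlk1, a membrane protein of fetal hepatoblasts and other progenitors, was among them. It had 2, 0 and 48 counts in Dicer LKO and 0, 1 and 0 in controls. The 48 counts of Dicer LKO replicate 3 (exact 95% Poisson interval 35.4 to 63.6, counting error only) equal 1.91 CPM, and the other 5 libraries were at or under the floor of 3 counts, so Dlk1 did not pass the filter and was not tested. Rtl1, a retrotransposon-derived gene on the opposite strand, had 3 counts in that same library and 0 in the others.

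The libraries with most Meg3 and Rian among the Dicer LKO samples were also those with most H19 and Igf2, which lie in another imprinted cluster. H19 was at 234, 37.2 and 430 CPM in Dicer LKO and at 0.270, 0.144 and 44.7 CPM in controls (log2 fold change 3.98, adjusted p = 0.350, edgeR). Without control replicate 3 that value was 10.1 (adjusted p = 0.119, edgeR). Igf2 was at 56.7, 4.86 and 132 CPM in Dicer LKO and at 0.180, 0.432 and 0.574 CPM in controls (log2 fold change 7.39, adjusted p = 0.0855, edgeR). Igf2 passed the threshold in 2 of 14 alternatives, DESeq2 (adjusted p = 2.67e-07) and edgeR without Dicer LKO replicate 2 (adjusted p = 0.0147), and its log2 fold change was 4.28 to 9.47 over the alternatives. Dicer LKO replicate 3 was thus highest and replicate 2 lowest for Dlk1, Meg3, Rian, H19 and Igf2. Peg3, Mest and Grb10 had another order and were highest in Dicer LKO replicate 2. Over the 23 tested members, 9 had their highest CPM in Dicer LKO replicate 3 and 7 in Dicer LKO replicate 2, while 6 had their lowest in Dicer LKO replicate 2 and 4 in Dicer LKO replicate 3.

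**Figure D4:**
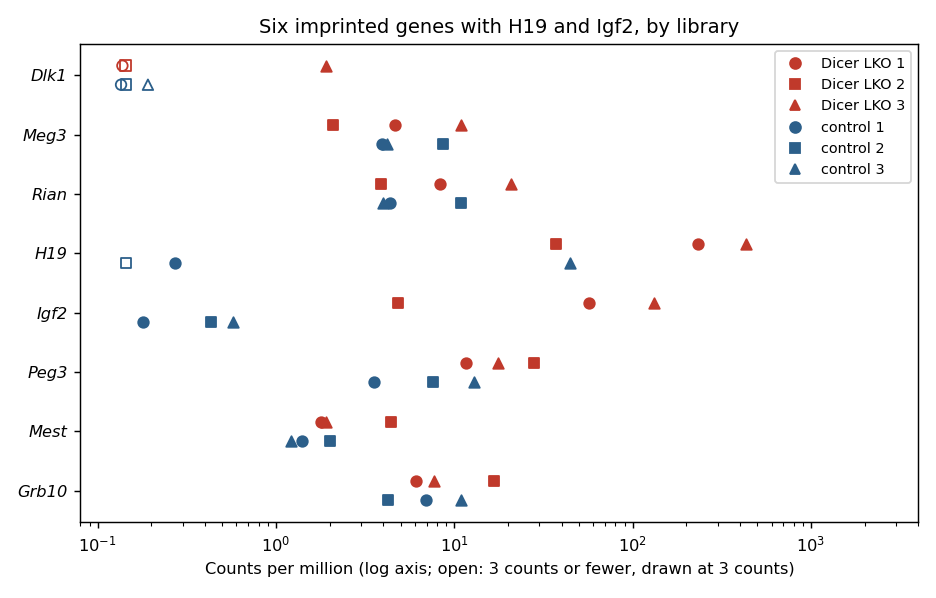
CPM (log axis) of Dlk1, Meg3, Rian, H19, Igf2, Peg3, Mest and Grb10 in each library. Open symbols are libraries with 3 counts or fewer, drawn at 3 counts. Dicer LKO replicate 3 (red triangle) is highest for the first 5 genes, at 1.91 CPM for Dlk1 and 430 CPM for H19, and Dicer LKO replicate 2 (red square) is the highest Dicer LKO library for the last 3.

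Peg3 and its neighbours lie at the proximal end of chromosome 7. Peg3 (6703892 to 6730431, minus strand), a zinc finger protein, was at 11.6, 27.9 and 17.6 CPM in Dicer LKO and at 3.56, 7.54 and 12.8 CPM in controls. The mean was more than that of the controls (19 ± 8.26 against 7.97 ± 4.64 CPM, SD, n = 3 each), but Dicer LKO replicate 1 lay below control replicate 3. The log2 fold change was 1.27 (SE 0.51, adjusted p = 0.230, edgeR), and it was 0.91 to 1.79 without single libraries. Usp29 starts 147 bases from Peg3 on the other strand, and the RefSeq promoter windows of the pair (250 bases before to 50 after the start) share 263 bases. Usp29, a ubiquitin protease gene, had 1 count in all, in Dicer LKO replicate 3, and the maternally expressed Zim1 had 4 counts, all in control replicate 3. Per length, the mean level over the 6 samples was 1.25 TPM for Peg3 and 0.0017 TPM for Usp29.

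Sgce and Peg10 on chromosome 6 also start back to back, 99 bases apart. Sgce (4674350 to 4747207, minus strand), a sarcoglycan, was at 3.44, 3.76 and 4.94 CPM in Dicer LKO and at 3.61, 2.83 and 1.91 CPM in controls (log2 fold change 0.53, SE 0.28, adjusted p = 0.326, edgeR). Peg10, a retrotransposon-derived gene needed in placenta, had 2, 12 and 13 counts in Dicer LKO and 8, 18 and 12 in controls, a log2 fold change of -0.72 (SE 0.63) that was -0.27 without Dicer LKO replicate 1, the library with 2 counts. Neither gene was called. Farther along the same chromosome, Mest (30723547 to 30748465, plus strand), which encodes an enzyme of the alpha/beta hydrolase fold, was at 1.79, 4.43 and 1.91 CPM in Dicer LKO and at 1.40, 2.02 and 1.21 CPM in controls. Dicer LKO replicate 2 stood above all other libraries. The log2 fold change of 0.80 (SE 0.42, adjusted p = 0.317, edgeR) was 0.30 without that library. Copg2, a coat protein gene whose end overlaps that of Mest on the other strand, was at 21.2 to 31.0 CPM in Dicer LKO and 22.3 to 30.8 CPM in controls. The counting strand is not given in the sources used here, so reads of such overlapping pairs cannot be told apart with certainty.

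In the Kcnq1 cluster at the distal end of chromosome 7, Cdkn1c (143458339 to 143461050, minus strand), an inhibitor of cyclin-dependent kinases, was at 1.51, 1.33 and 2.19 CPM in Dicer LKO and at 1.26, 0.672 and 1.15 CPM in controls. The groups did not overlap, by a narrow margin, and the log2 fold change was 0.71 (SE 0.36, adjusted p = 0.299, edgeR). Kcnq1ot1, the long noncoding RNA that silences this cluster on the paternal copy (143203458 to 143296549, minus strand), was at 73.2, 137 and 55.8 CPM in Dicer LKO and at 118, 124 and 124 CPM in controls. The controls were nearly equal, while Dicer LKO replicates 1 and 3 lay below and replicate 2 above all of them (log2 fold change -0.46, SE 0.31, adjusted p = 0.444, edgeR). Without Dicer LKO replicate 2 the value was -0.88 (adjusted p = 0.0864, edgeR), and without Dicer LKO replicate 3 it was -0.21. Kcnq1, the potassium channel gene on the strand opposite to Kcnq1ot1, was at 3.39, 2.38 and 4.14 CPM in Dicer LKO and at 1.08, 1.73 and 1.72 CPM in controls (log2 fold change 1.14, adjusted p = 0.105, edgeR), with its highest CPM in the 2 libraries that were lowest for Kcnq1ot1. In TPM the groups overlapped, and Kcnq1 was highest in control replicate 1 (1.05 TPM, against 0.81, 0.89 and 1.03 TPM in Dicer LKO). It was singled out after its values were seen. Cd81 (179 to 211 CPM in Dicer LKO, 172 to 180 CPM in controls) and Tssc4, a factor of spliceosome assembly (6.53 to 9.15 against 6.96 to 7.40 CPM), had log2 fold changes of 0.12 each. Phlda2, which limits placental growth, had 0 to 4 counts per library and was not tested.

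Igf2r (chromosome 17, 12682406 to 12769664, minus strand) was among the most even members. It was at 107, 99.97 and 109 CPM in Dicer LKO and at 104, 97.5 and 88.9 CPM in controls, with a log2 fold change of 0.12 (SE 0.13, adjusted p = 0.628, edgeR). Airn, the paternal antisense RNA that begins inside Igf2r and silences it, had 21, 18 and 8 counts in Dicer LKO and 15, 13 and 23 in controls. Because the transcript overlaps Igf2r and the strand setting is unknown, its counts are uncertain.

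In the Prader-Willi and Angelman cluster on chromosome 7, Ndn (62346569 to 62350262, plus strand), a MAGE family growth suppressor of neurons, was at 0.229, 0.429 and 0.199 CPM in Dicer LKO and at 0.451, 0.672 and 1.02 CPM in controls. Every Dicer LKO library lay below every control, from only 5 to 9 counts against 10 to 16, and the log2 fold change was -1.29 (SE 0.50, adjusted p = 0.195, edgeR). Ube3a (59228750 to 59311536, plus strand), which is imprinted in neurons, was at 102, 113 and 113 CPM in Dicer LKO and at 144, 115 and 134 CPM in controls (log2 fold change -0.26, SE 0.14, adjusted p = 0.341, edgeR). Its antisense transcript Snhg14 had 22 to 40 counts per library, against 2094 to 3192 for Ube3a. Snrpn, a splicing protein gene, was at 4.10 to 9.28 CPM in Dicer LKO and 5.81 to 8.29 CPM in controls, and it shares its strand and reads with Gm38393 and Snurf, so its count rests on how the model divided them. Magel2 had 0 counts in every library, so the floor of 3 counts allows up to 0.120 to 0.191 CPM.

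Gnas (chromosome 2, 174284320 to 174346744, plus strand), which encodes the stimulatory G protein alpha subunit, was at 184, 164 and 185 CPM in Dicer LKO and at 212, 215 and 269 CPM in controls. The groups did not overlap, and the means of 178 ± 12.1 and 232 ± 32 CPM (SD, n = 3 each) gave a log2 fold change of -0.38 (SE 0.16, adjusted p = 0.235, edgeR). The value covers all transcripts of this locus, whose promoters are imprinted differently, and cannot be split among them. Both Gnas and Ndn were highest in control replicate 3, the library with the highest sum over the heart muscle markers (119 CPM). Myh7 (79.2 CPM) and Myl2 (17.9 CPM) gave the largest parts of that sum. Nppa was at 4.97 CPM there, against 3.83 and 3.99 CPM in the other controls. Which kind of muscle the RNA came from was not tested. Without control replicate 3 the log2 fold change of Gnas was -0.24 and that of Ndn -0.95. With the heart muscle marker level as a term in the fit, added after the data were seen, they were -0.14 and -1.07 (adjusted p = 0.981 and 0.914, edgeR). In the same fit Mirg was at 1.51 (adjusted p = 0.789, edgeR), Peg3 at 1.84 and Mest at 0.071. Of the 23 tested members 0 had an unadjusted p under 0.05 in it (edgeR). The marker sum was at most 12.1 CPM in Dicer LKO and at least 13.6 CPM in controls, so this fit cannot separate the term from genotype.

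Among the remaining single loci, Grb10 (chromosome 11, 11930508 to 12038683, minus strand), an adaptor that damps insulin receptor signalling, was at 6.10, 16.6 and 7.73 CPM in Dicer LKO and at 6.94, 4.23 and 10.9 CPM in controls. Its log2 fold change of 0.47 (SE 0.47, adjusted p = 0.620, edgeR) was -0.04 without Dicer LKO replicate 2, the library that stood above all others. Slc38a4 (chromosome 15, 96994820 to 97055956, minus strand) was at 1278, 739 and 1492 CPM in Dicer LKO and at 1457, 1308 and 774 CPM in controls. Each group had 1 low library, Dicer LKO replicate 2 and control replicate 3, and the log2 fold change was -0.01 (SE 0.34). Plagl1, a zinc finger transcription factor that acts on many other imprinted genes, was at 0.837 to 1.57 CPM in Dicer LKO and 0.829 to 1.25 CPM in controls. Impact, a regulator of the GCN2 kinase, was at 11.6 to 13.8 against 10.7 to 12.1 CPM, and Commd1 at 18.2 to 19.6 against 15.4 to 19.8 CPM. Commd1 shares strand and reads with Gm28048, so its level is uncertain. Nnat, Zdbf2 and Nap1l5 had at most 4 counts in any library and were not tested.

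Other imprinted genes were counted from a separate list of 52. Of these 33 were tested, 0 rose and 1 fell, where 0.741% of all genes were called higher and 0.552% lower. There were 17 positive values, with a median log2 fold change of 0.08. At an unadjusted p under 0.05 there were 8 (24.2%, against 21% of all genes, edgeR). CPM did not overlap for 11 (33.3%, against 28% of all genes). The gene that fell was Ppp1r9a (neurabin, an actin-binding scaffold), which lies in the same imprinted cluster as Peg10 and Sgce. It was at 5.92, 6.62 and 7.09 CPM in Dicer LKO and at 12.8, 14.9 and 23.4 CPM in controls, without overlap (log2 fold change -1.38, SE 0.24, adjusted p = 0.0445, edgeR). The call was lost in 9 of 14 alternatives, among them the fits without control replicate 3 (-1.06) and with the muscle term (-0.85, adjusted p = 0.510). Dcn (decorin, a matrix proteoglycan of stellate cells) was at 228 to 254 CPM in Dicer LKO and 107 to 147 CPM in controls and was not called (log2 fold change 0.86, adjusted p = 0.0633, edgeR).

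A second list holds genes of DNA methylation, chromatin and zinc finger factors linked to imprints. Of 26 listed, 23 were tested, with 0 called by edgeR. At an unadjusted p under 0.05 there were 4 by edgeR (17.4%, against 21% of all genes) and 5 by DESeq2, which called 2. Their median log2 fold change was -0.14, and CPM did not overlap for 7 (30.4%, against 28% of all genes), of which 6 were lower. Both shares are near those of all genes, where 2203 of the 4014 without overlap were lower. Tet3, an enzyme that oxidises methylated cytosine, had the smallest adjusted p of the list and is named after its values were seen. It was at 18.8, 16.1 and 18.6 CPM in Dicer LKO and at 25.1, 39.5 and 46.7 CPM in controls (log2 fold change -1.06, SE 0.22, adjusted p = 0.0695, edgeR). Zfp445, a zinc finger protein that helps to keep methylation at imprinted control regions, was at 86.0, 111 and 69.4 CPM in Dicer LKO and at 183, 111 and 182 CPM in controls, with 1 library of each group at the same level (log2 fold change -0.84, SE 0.25, adjusted p = 0.125, edgeR). Rbbp6, an ubiquitin ligase that the list also holds, was at 41.2 to 50.4 CPM in Dicer LKO and at 57.0 to 72.0 CPM in controls (log2 fold change -0.48, adjusted p = 0.123, edgeR). A link of Rbbp6 to imprints was not tested here.

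Promoter sequence was not used to choose the genes. RefSeq promoter windows of 300 bases were found for 27 of the 32 genes (41 windows, GRCm38.p6). They held a median of 16 CpG dinucleotides, with a range of 0 to 45, against a median of 7 over all 32851 windows. The hexamer TGCCGC, in which ZFP57 recognises a methylated CpG, occurred on either strand in 12 of the 41 windows (29.3%) and in 11.6% of all windows. The palindrome GGGGCCCC, a core of the sequence bound by PLAGL1, occurred in 2 member windows (4.88%), those of Peg3 and Usp29, which overlap, and in 1.08% of all windows. The 2 motifs do not overlap each other, TGCCGC contains a CpG itself, and a match is a description of the window and not a bound site.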

How the data were processed

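RNA-seq of 6 mouse liver samples was used. The authors deposited, per sample, an expected count (estimated reads per gene, ambiguous reads shared by a model) and a TPM value (scaled by effective length to a common total). The column names match RSEM output, per the file headers. The tools listed per the submitters' processing notes are CASAVA and Bowtie, with build hg19, although the gene IDs are mouse. The mouse build, annotation and strand setting: not given in the sources used here. Of the IDs, 99.6% matched GENCODE M21 (GRCm38), the source of coordinates. A table of the whole series was not used.

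Expected counts were rounded, filtered with filterByExpr, scaled by TMM and tested by edgeR's quasi-likelihood test (edgeR 4.0.16, R 4.3.3, limma 3.58.1, DESeq2 1.42.0) with genotype as the only term; calls are at a Benjamini-Hochberg adjusted p under 0.05 over all genes tested. The SE was derived from the log2 fold change and its F statistic, and 95% intervals use the test's degrees of freedom. Counts at or under 3 per library are the floor; floors and Poisson intervals cover counting error only. All 32 members are named, with up to 4 called genes of each further list, or up to 2 of highest mean CPM where fewer than 2 were called; Igf2, Kcnq1, Tet3, Gm37899 and Snhg14 were added after their values were seen. The members and lists were chosen with earlier results of these data known. The fit was tested on simulated data. Alternatives were other normalizations, no filter, DESeq2, voom, limma on log2(TPM + 0.5), a replicate block, leaving out each library and, added after seeing the data, a heart muscle term.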

Additional observations from a re-analysis of the deposited data

How the results depend on the processing

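No member was called in any of the 14 alternatives. Of 322 member values over these settings, 289 kept their sign and 33 did not, and all 33 belonged to 12 members. Changes of sign outside the fits that leave out a library were those of Meg3 (-0.10 with voom, -0.082 with the replicate block), Cd81 (-0.011 with library totals and -0.0081 with TPM), Tssc4 (-0.013, -0.038 and, with the muscle term, -0.056), Igf2r (-0.022 with TPM), Snrpn (-0.086 with library totals, -0.013 with voom, -0.13 with TPM, -0.037 with the block), Plagl1 (-0.57 with the muscle term) and Commd1 (-0.021 with library totals, -0.10 with TPM, -0.00019 with the muscle term). Library totals and TPM moved the median of all genes to -0.13 and -0.10. Without single libraries the ranges were -0.72 to 0.56 for Meg3, -0.071 to 1.42 for Rian, -0.63 to 0.14 for Airn, -0.12 to 0.17 for Copg2, -0.22 to 0.34 for Snrpn, -0.025 to 0.37 for Plagl1, -0.042 to 0.88 for Grb10 and -0.22 to 0.27 for Slc38a4; the cause was not tested.

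The number of all genes called was 185 (106 higher and 79 lower), 103 with library totals (50 higher), 422 without a filter (207 higher), 1114 with DESeq2 (493 higher), 92 with voom, 101 with TPM (53 higher), 7 with the muscle term (all higher) and 23 to 389 without single libraries (15 higher and 8 lower without control replicate 3, 76 and 313 without control replicate 1, 42 and 19 without control replicate 2, and, leaving out the Dicer LKO libraries in order, 32 and 7, 68 and 24, and 24 and 7). The 1 call among other imprinted genes became 0 with library totals, voom, TPM or the muscle term, 2 without a filter and 4 with DESeq2, and 0 to 1 without single libraries. The 0 calls among the genes of factors linked to imprints became 1 without a filter and 2 with DESeq2, and 0 to 1 without single libraries. Correlations of deviations from the group mean were 0.13, 0.07 and -0.13 for same-numbered samples and -0.20 to 0.15 for the others. With 3 samples per group these values cannot decide whether the replicate numbers pair the samples. The replicate block called 256 genes and 0 members, and not every sample correlated best with its own number. Ratios to Meg3 differed by 0.64 to 0.85 (Rian), 1.35 to 2.49 (Mirg) and 0.95 to 1.89 (Gm37899) on the log2 scale without single libraries. The count filter left out 9 of the 32 members, which were not tested.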
